A study of Mus musculus with 24 samples.

Results

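The genes described here are 39 genes of glycolysis and of the transcriptional response to low oxygen, taken by symbol from a list. All 39 were in the deposited table of 19953 genes. By role they were 2 glucose transporters, 16 glycolytic enzymes, 4 genes that control glycolytic flux or export its product, and 17 other targets of the hypoxia-inducible factors (HIF).

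The study measured polyA RNA in mouse embryonic stem cells, kept as stem cells (day 0) or taken through a differentiation protocol for 4 days (day 4), to compare the loss of the histone methyltransferase genes Mll1 (Kmt2a) and Mll2 (Kmt2b). There were 8 groups of 3 libraries: double-KO, Mll2-KO, Mll1-KO and WT cells at day 4, and the same 4 genotypes at day 0. Day 4 cells had received 1 µM retinoic acid in 10% serum, with no leukemia inhibitory factor listed. Day 0 cells grew on gelatin in 15% serum with leukemia inhibitory factor. To induce Cre, 800 nM 4-hydroxytamoxifen was applied for 48 hours in the Mll2-KO and double-KO groups, and none is listed for Mll1-KO or WT cells, so loss of Mll2 and exposure to the drug cannot be told apart. Mll1-KO cells were made by CRISPR deletion in the line that carries the Cre-inducible Mll2 allele. The number of clones behind each genotype is not given in the sources used here. The labels do not say that libraries of a group came from separate cultures, so p-values measure the spread between these libraries, which may be technical.

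Libraries held 10.75 to 22.79 M reads (M, 1e6 reads), with 10.75 to 17.14 M at day 4 and 17.70 to 22.79 M at day 0. Kmt2a averaged 29.7 ± 11.8 normalized counts in day 0 Mll1-KO cells and 29.7 ± 8.36 in day 0 double-KO cells, against 1090 ± 37.8 in WT cells (SD, n = 3 each). Kmt2b averaged 2540 ± 226 in day 0 Mll2-KO cells and 2850 ± 48.2 in WT cells, and a count over a whole gene does not check the removal of part of it. The summed level of 15 pluripotency markers was 153216 to 171768 normalized counts over the 12 day 0 libraries. At day 4 that sum was 5792 to 16050. An extra letter, unexplained by the labels, stands in the column names of WT at day 0, and these 3 libraries held the highest level of most of the 39 genes at day 0. Every day 0 result against WT therefore rests on them.

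Glycolysis breaks glucose down to pyruvate, and cells with little oxygen, as well as pluripotent stem cells in ordinary oxygen, turn much of that pyruvate into lactate. When oxygen is present, prolyl hydroxylases mark the HIF alpha subunits and the VHL protein sends them for degradation. When oxygen is low the alpha subunit persists, pairs with ARNT and binds a short DNA element, and it activates glucose transporters, most glycolytic enzymes and genes for blood vessel growth, mitophagy and collagen hydroxylation. In these bulk libraries, fewer cells that express a gene and less RNA per cell cannot be told apart.

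The promoters below belong to the members with the largest mean absolute log2 fold change against WT. The mean covered the day 0 and day 4 comparisons in which a gene was tested, for members called in 3 or more. The promoters are shown because HIF-1 binds the core ACGTG or GCGTG. The windows are from RefSeq on GRCm38.p6, from 250 bases before to 50 bases after the start of the gene, written 5′ to 3′ along the gene. Capitals mark ACGTG or GCGTG on the printed strand, or CACGT or CACGC, the same letters on the other strand. Overlapping matches run together, as in CACGTG and CACGCGTG. Stc1 and Ndufa4l2 also belong to this set.
Adm: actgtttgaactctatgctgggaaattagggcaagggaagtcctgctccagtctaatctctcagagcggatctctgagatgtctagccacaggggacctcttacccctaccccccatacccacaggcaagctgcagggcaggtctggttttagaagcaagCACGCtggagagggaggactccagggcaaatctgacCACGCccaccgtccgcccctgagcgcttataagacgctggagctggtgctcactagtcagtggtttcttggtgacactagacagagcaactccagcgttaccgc
Ankrd37: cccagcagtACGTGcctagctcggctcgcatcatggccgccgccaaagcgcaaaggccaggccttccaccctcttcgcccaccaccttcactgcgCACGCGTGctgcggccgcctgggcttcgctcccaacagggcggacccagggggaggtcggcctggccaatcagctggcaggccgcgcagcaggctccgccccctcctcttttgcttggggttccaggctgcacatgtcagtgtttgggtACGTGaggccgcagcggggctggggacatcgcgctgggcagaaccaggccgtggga
Ppp1r3c: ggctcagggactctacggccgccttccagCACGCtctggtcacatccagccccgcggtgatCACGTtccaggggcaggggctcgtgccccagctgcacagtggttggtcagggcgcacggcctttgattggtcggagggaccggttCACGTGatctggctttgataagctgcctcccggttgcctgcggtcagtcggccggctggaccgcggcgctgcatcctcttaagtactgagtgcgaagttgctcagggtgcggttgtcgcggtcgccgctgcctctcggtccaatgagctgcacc
Egln3: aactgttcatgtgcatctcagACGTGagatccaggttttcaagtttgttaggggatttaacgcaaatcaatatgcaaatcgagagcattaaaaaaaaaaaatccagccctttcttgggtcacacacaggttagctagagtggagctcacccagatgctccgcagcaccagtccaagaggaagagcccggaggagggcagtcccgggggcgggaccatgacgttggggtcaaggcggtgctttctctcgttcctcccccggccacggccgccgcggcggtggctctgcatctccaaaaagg
P4ha2: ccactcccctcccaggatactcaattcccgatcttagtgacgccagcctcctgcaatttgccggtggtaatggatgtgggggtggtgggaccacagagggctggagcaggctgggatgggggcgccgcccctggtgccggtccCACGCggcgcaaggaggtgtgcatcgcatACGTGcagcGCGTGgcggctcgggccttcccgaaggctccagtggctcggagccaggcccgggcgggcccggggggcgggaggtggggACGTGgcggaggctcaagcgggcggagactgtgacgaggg
Bnip3: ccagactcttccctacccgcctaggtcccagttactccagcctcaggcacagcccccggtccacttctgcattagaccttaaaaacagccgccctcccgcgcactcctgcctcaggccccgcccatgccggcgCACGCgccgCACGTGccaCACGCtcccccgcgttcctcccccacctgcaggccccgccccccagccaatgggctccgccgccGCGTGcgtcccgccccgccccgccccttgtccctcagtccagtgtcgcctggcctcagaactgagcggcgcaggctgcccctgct
The Adm window is chr7:110627407-110627706 on the plus strand and holds 2 matches. The Ankrd37 window is chr8:45999801-46000100 on the minus strand, with 4 matches. The Ppp1r3c window is chr19:36736555-36736854 on the minus strand, with 4 matches. All of these lie in front of genes that were lower in every day 0 mutant. Of these genes, Adm and Ppp1r3c could be tested at day 0 only because WT was high. The start sites are the annotated ones, not ones measured in these cells. The Egln3 window is chr12:54203825-54204124 on the minus strand, with 1 match. The P4ha2 window is chr11:54100674-54100973 on the plus strand, with 4 matches. The Bnip3 window is chr7:138909457-138909756 on the minus strand, with 5 matches. Over the 36 members in the promoter table, 42 of 54 windows (77.8%) held a match on either strand, against 14380 of 32851 windows of all genes (43.8%). The motif contains CG, and the members' windows held a median of 21 CG pairs, against 7 over all windows. Among all windows with at least 21 CG pairs, 74.0% held a match. Enzymes (20 of 27 windows, 74.1%) and other HIF targets (16 of 20 windows, 80.0%) had close shares.

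At day 0, almost every gene of the list was lower in each mutant than in WT. In Mll1-KO cells 36 of 39 members fell and 1 rose (median log2 fold change -0.89), while 40.0% of the 13984 genes tested were called in either direction and 18.7% were lower. In Mll2-KO cells 34 fell and 3 rose (median -0.95), with 47.2% of all genes called and 24.3% lower. In double-KO cells 32 fell and 1 rose (median -0.75), with 53.7% of all genes called and 27.1% lower. Without day 0 double-KO replicate 3, 2 members rose in double-KO cells. Adm, Stc1 and Ppp1r3c reached the filter on low values only through the WT libraries, so they could be tested only because WT was high. Of the other 36 members, 33 fell in Mll1-KO (median -0.80), 31 in Mll2-KO (median -0.85) and 29 in double-KO cells (median -0.66). The median over all genes tested was 0.00 in each of the 3 comparisons, which share the WT libraries. Of the genes called in Mll1-KO cells 53.2% were higher, and 38.9% when libraries were scaled to their column totals, while the members' counts were the same under both scalings. Calls are at an adjusted p below 0.05 from limma on log2 of the normalized count plus 1, with Benjamini-Hochberg adjustment over all genes tested, and each fold change is on that scale with its SE.

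**Figure D1:**
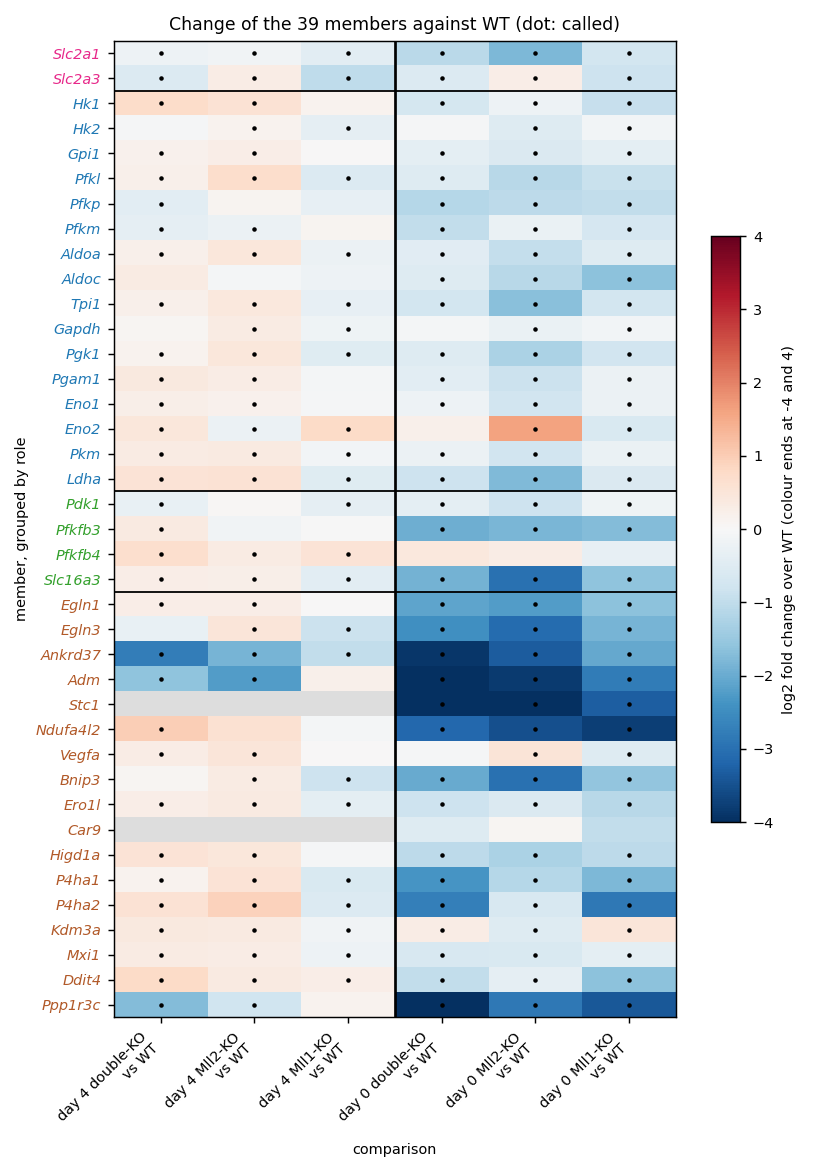
Log2 fold change over WT (colour) of the 39 members (rows, grouped by role and coloured by it) in the 3 mutants at day 4 (left) and at day 0 (right), with a dot where the change was called and grey where a gene was not tested. Day 0 columns are mostly blue, with 36, 34 and 32 members lower in Mll1-KO, Mll2-KO and double-KO cells, while at day 4 the Mll2-KO and double-KO columns are mostly red.

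The glucose transporters changed unequally. Slc2a1, which encodes GLUT1, the widespread basal glucose transporter, had 6224, 6091 and 5939 normalized counts in day 0 double-KO cells, 3989, 3387 and 3583 in Mll2-KO cells and 8081, 7979.8 and 7224 in Mll1-KO cells, against 11890.4, 13525 and 13113 in WT cells. All 9 mutant libraries lay below the 3 WT libraries, and the Mll2-KO libraries were the lowest. The log2 fold changes over WT were -1.08 ± 0.06 (adjusted p = 8.8e-12) in double-KO, -1.81 ± 0.06 (adjusted p = 6.6e-15) in Mll2-KO and -0.73 ± 0.06 (adjusted p = 7e-09) in Mll1-KO cells. Slc2a3, which encodes the high-affinity transporter GLUT3, had 17998, 17845 and 17987 in double-KO, 30176, 29692 and 35082 in Mll2-KO and 15277, 14732 and 14521 in Mll1-KO cells, against 25624, 26689 and 27317 in WT cells. Mll2-KO libraries lay above WT and the other mutants below it. Slc2a3 rose by 0.25 ± 0.05 (adjusted p = 0.00061) in Mll2-KO cells, and its changes were -0.56 ± 0.05 (adjusted p = 2.2e-08) in double-KO and -0.84 ± 0.05 (adjusted p = 1.3e-10) in Mll1-KO cells. With these opposite changes the log2 ratio of Slc2a1 to Slc2a3 within a library was -3.11 ± 0.19 in Mll2-KO cells, against -1.05 ± 0.06 in WT cells (SD, n = 3 each). Per kilobase of all annotated exons merged, both transporters averaged 3660 normalized counts in day 0 WT cells, a level that depends on that length.

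All 16 glycolytic enzymes changed in Mll1-KO and in Mll2-KO cells at day 0, and 13 in double-KO cells. Over all genes 40.0% were called in Mll1-KO, 47.2% in Mll2-KO and 53.7% in double-KO cells. In Mll1-KO cells all 16 fell, with a median of -0.60. In Mll2-KO cells 15 fell and Eno2 rose, with a median of -0.82. In double-KO cells 13 fell, with a median of -0.48. In double-KO cells Hk2, a hexokinase that traps glucose as its phosphate, changed by -0.04 ± 0.05 (adjusted p = 0.54), Gapdh by -0.07 ± 0.04 (adjusted p = 0.22) and Eno2 by 0.21 ± 0.19 (adjusted p = 0.36).

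The enzymes that fell most were not the same in each mutant. Ldha, which encodes the lactate dehydrogenase subunit that favours lactate formation, had 17778, 18222 and 18372 normalized counts in double-KO, 10631, 10220.1 and 7638 in Mll2-KO and 23053, 21069.5 and 20006 in Mll1-KO cells, against 30105, 32861 and 33163 in WT cells. The 4 genotypes did not overlap, and Mll2-KO libraries were lowest. Ldha changed by -1.77 ± 0.08 (adjusted p = 2.2e-12) in Mll2-KO, -0.82 ± 0.08 (adjusted p = 7.3e-08) in double-KO and -0.59 ± 0.08 (adjusted p = 1.1e-05) in Mll1-KO cells. Tpi1, triose phosphate isomerase, had 7156, 7139 and 7141 in double-KO, 3933, 4061 and 3404 in Mll2-KO and 7351, 7167 and 6865 in Mll1-KO cells, against 11028, 12293 and 12678 in WT cells. Double-KO and Mll1-KO libraries overlapped, and both lay between Mll2-KO and WT. Tpi1 changed by -1.66 ± 0.06 (adjusted p = 2.2e-14) in Mll2-KO cells, and by -0.75 ± 0.06 (adjusted p = 2e-09) in double-KO cells. Pgk1, phosphoglycerate kinase, which makes ATP in the payoff phase, changed by -1.27 ± 0.05 (adjusted p = 2.9e-13) in Mll2-KO cells, against -0.52 ± 0.05 (adjusted p = 7.9e-08) in double-KO and -0.76 ± 0.05 (adjusted p = 6e-10) in Mll1-KO cells.

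In Mll1-KO cells the largest fall among enzymes was that of Aldoc, the brain-type aldolase, with 177, 203 and 209 normalized counts, against 479, 668 and 714 in WT cells. Its level was 394, 419 and 455 in double-KO and 269, 222 and 384 in Mll2-KO cells, so all mutant libraries lay below WT and Mll1-KO libraries were the lowest. The changes were -1.64 ± 0.16 (adjusted p = 5.6e-08) in Mll1-KO, -0.53 ± 0.16 (adjusted p = 0.0065) in double-KO and -1.10 ± 0.16 (adjusted p = 8.1e-06) in Mll2-KO cells. Hk1, the hexokinase held at mitochondria, changed by -0.93 ± 0.07 (adjusted p = 2.5e-09) in Mll1-KO and -0.69 ± 0.07 (adjusted p = 8.4e-08) in double-KO cells, but by -0.20 ± 0.07 (adjusted p = 0.027) in Mll2-KO cells. Hk2 showed the reverse order among single mutants, at -0.12 ± 0.05 (adjusted p = 0.045) in Mll1-KO and -0.53 ± 0.05 (adjusted p = 1.5e-08) in Mll2-KO cells. The log2 ratio of Hk2 to Hk1 was 1.81 ± 0.13 in double-KO, 0.82 ± 0.15 in Mll2-KO and 1.96 ± 0.02 in Mll1-KO cells, against 1.15 ± 0.00 in WT cells, so the ratio was above WT where Mll1 was lost and below it where Mll2 alone was lost.

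The phosphofructokinase genes, which set the committed step, fell to different degrees. Pfkp, the platelet type, changed by -1.15 ± 0.06 (adjusted p = 5.2e-12) in double-KO and -1.04 ± 0.06 (adjusted p = 4.4e-11) in Mll2-KO cells, and the Mll2-KO libraries overlapped both those of double-KO and those of Mll1-KO cells. Pfkl, the liver type, changed by -0.51 ± 0.06 (adjusted p = 2.5e-07) in double-KO, -1.12 ± 0.06 (adjusted p = 6.4e-12) in Mll2-KO and -0.89 ± 0.06 (adjusted p = 1.5e-10) in Mll1-KO cells. Pfkm, the muscle type, changed by -0.98 ± 0.09 (adjusted p = 1.9e-08) in double-KO, -0.27 ± 0.09 (adjusted p = 0.02) in Mll2-KO and -0.68 ± 0.09 (adjusted p = 5.3e-06) in Mll1-KO cells.

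Eno2, the neuronal enolase, was the exception among enzymes. It had 97.6, 96.8 and 72.2 normalized counts in double-KO, 199, 222 and 284 in Mll2-KO and 45.3, 42.0 and 62.4 in Mll1-KO cells, against 88.8, 65.3 and 75.3 in WT cells. Mll2-KO libraries were the highest, Mll1-KO libraries the lowest, and double-KO and WT libraries overlapped. Eno2 rose by 1.60 ± 0.19 (adjusted p = 9.4e-07) in Mll2-KO cells and its change was -0.62 ± 0.19 (adjusted p = 0.013) in Mll1-KO cells. It is a minor enolase here, at 16.3 ± 2.51 normalized counts per kilobase of exon in day 0 WT cells, against 11400 ± 395 for Eno1 (SD, n = 3).

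Per kilobase of exon, the most abundant enzyme genes in day 0 WT cells were Gapdh at 25500 ± 444, Pkm at 15600 ± 578, Pgam1 at 11500 ± 573, Eno1 at 11400 ± 395 and Aldoa at 10900 ± 673 normalized counts (SD, n = 3). Pgam1, Eno1 and Aldoa lay close together on this scale, and the SD covers the spread of libraries only. The divisor was the length of all annotated exons merged, 1.98 kb for Pgam1, 5.38 kb for Eno1 and 3.71 kb for Aldoa. An order between genes depends on that length, which need not be that of the expressed transcript. Ldha followed at 9680 ± 509 and Pgk1 at 8300 ± 770. These levels are uncertain for Gapdh, whose transcripts match 37 other genes at 97% identity or more over at least 300 bases, and also for Eno1, Pgk1, Gpi1, Tpi1, Pgam1, Pkm, Bnip3 and Higd1a, which match 1 to 4 other genes each. The handling of such reads is not given in the sources used here. Together the 16 enzymes held 1.83 ± 0.02% of all reads in double-KO, 1.41 ± 0.05% in Mll2-KO and 1.79 ± 0.03% in Mll1-KO cells, against 2.34 ± 0.11% in WT cells at day 0.

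Of the 4 control and export genes, 3 fell in every mutant at day 0. Over all genes 27.1% fell in double-KO, 24.3% in Mll2-KO and 18.7% in Mll1-KO cells. Slc16a3, which encodes the lactate exporter MCT4, had 801, 828 and 782 normalized counts in double-KO, 419.8, 376 and 319 in Mll2-KO and 1048, 1024 and 879 in Mll1-KO cells, against 2618, 3157 and 3151 in WT cells. The genotypes did not overlap, with Mll2-KO lowest and WT highest. The changes were -1.88 ± 0.09 (adjusted p = 1e-12), -3.00 ± 0.09 (adjusted p = 1.8e-15) and -1.60 ± 0.09 (adjusted p = 2.5e-11) for double-KO, Mll2-KO and Mll1-KO cells in that order. Pfkfb3, whose product makes the fructose bisphosphate that activates phosphofructokinase, had 185, 160.0 and 221 in double-KO, 186, 215 and 211 in Mll2-KO and 207, 206 and 246 in Mll1-KO cells, against 622, 761 and 794 in WT cells. The 3 mutants overlapped each other, far below WT. Its changes ran from -1.94 ± 0.12 (adjusted p = 6.2e-11) in double-KO to -1.72 ± 0.12 (adjusted p = 7.4e-10) in Mll1-KO cells. Pdk1, a kinase that shuts off pyruvate dehydrogenase, changed by -0.38 ± 0.05 (adjusted p = 5.2e-06) in double-KO and -0.84 ± 0.05 (adjusted p = 1.6e-10) in Mll2-KO cells. In Mll1-KO cells Pdk1 changed by -0.17 ± 0.05 (adjusted p = 0.014), a call lost without day 0 WT replicate 3 (-0.12, adjusted p = 0.11) or without day 0 Mll1-KO replicate 2 (-0.14, adjusted p = 0.069). Pfkfb4 did not pass the test in any of them.

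**Figure D2:**
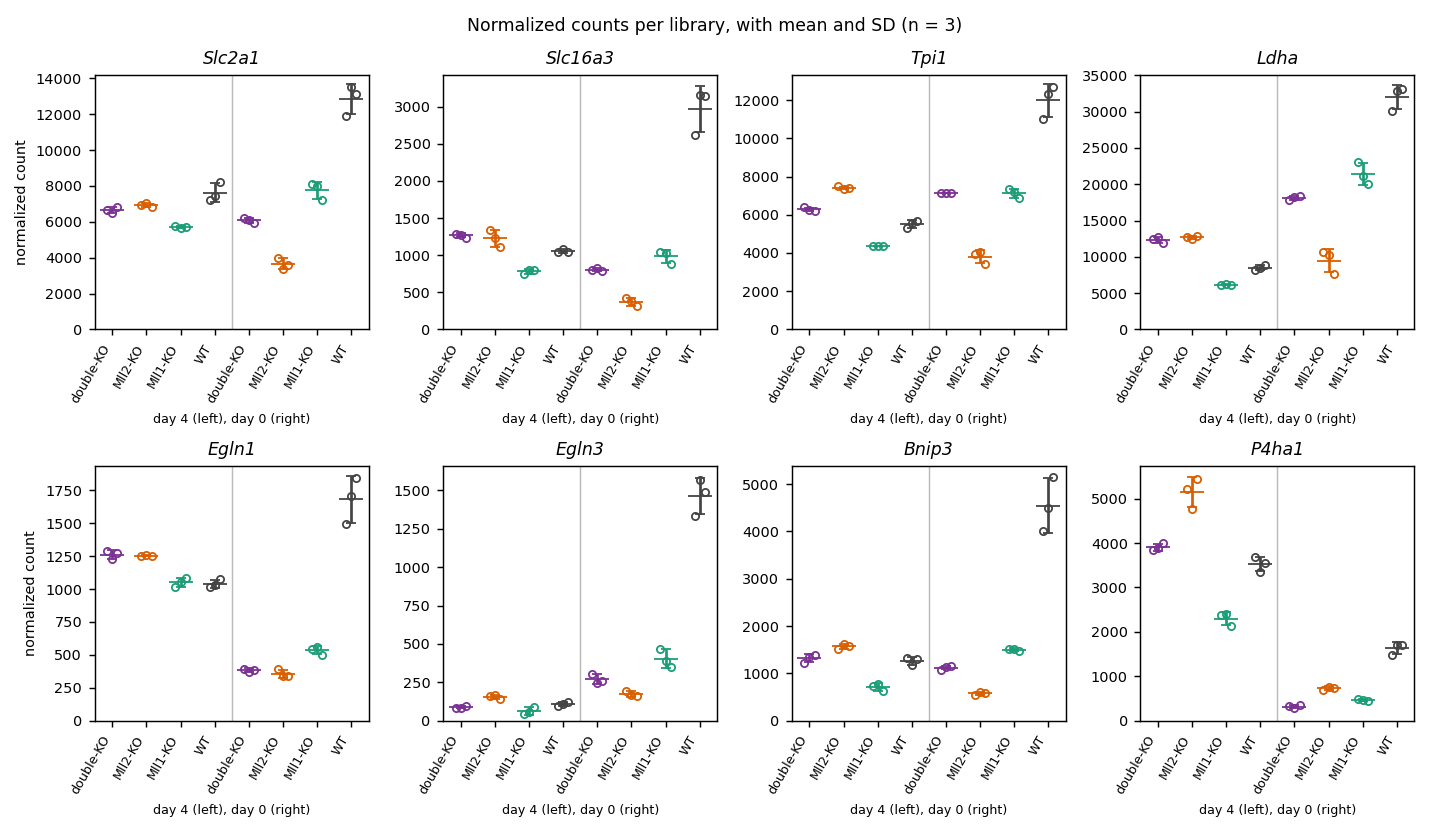
Normalized counts (vertical axis, linear, from 0) of 8 members in each of the 24 libraries (circles), with the group mean and SD (n = 3), for double-KO, Mll2-KO, Mll1-KO and WT cells at day 4 (left of the line) and day 0 (right). Day 0 WT libraries stand above all other day 0 libraries in each panel, and P4ha1 has its highest levels at day 4.

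Of the 17 other HIF targets, 14 fell in double-KO, 15 in Mll2-KO and 15 in Mll1-KO cells at day 0. Leaving aside the 3 that reached the filter only through WT, these counts were 11, 12 and 12 of 14. Over all genes 27.1%, 24.3% and 18.7% fell in that order. Egln3, a prolyl hydroxylase that is itself a HIF target, had 307, 247 and 258 normalized counts in double-KO, 194, 165 and 163 in Mll2-KO and 469, 391 and 347 in Mll1-KO cells, against 1336, 1567 and 1493 in WT cells. The genotypes did not overlap, and the changes were -2.44 ± 0.11 (adjusted p = 3.3e-13) in double-KO, -3.07 ± 0.11 (adjusted p = 2.2e-14) in Mll2-KO and -1.87 ± 0.11 (adjusted p = 4.3e-11) in Mll1-KO cells. Egln1, the main oxygen-sensing prolyl hydroxylase, had 396, 369 and 389 in double-KO, 394, 342 and 337 in Mll2-KO and 544, 562 and 501 in Mll1-KO cells, against 1493, 1709 and 1844 in WT cells. Double-KO and Mll2-KO libraries overlapped and were the lowest. Egln1 changed by -2.12 ± 0.08 (adjusted p = 3.9e-14), -2.23 ± 0.08 (adjusted p = 4.1e-14) and -1.64 ± 0.08 (adjusted p = 3.9e-12) in double-KO, Mll2-KO and Mll1-KO cells in that order. Bnip3, a mitochondrial receptor for mitophagy, had 1083, 1132 and 1148 in double-KO, 550.5, 599.8 and 579 in Mll2-KO and 1514, 1525 and 1475 in Mll1-KO cells, against 4002, 4488 and 5157 in WT cells. The 4 genotypes again did not overlap and Mll2-KO was lowest, as for Slc16a3 and Ldha. Bnip3 changed by -2.01 ± 0.07 (adjusted p = 6e-15) in double-KO, -2.97 ± 0.07 (adjusted p = 1.8e-17) in Mll2-KO and -1.59 ± 0.07 (adjusted p = 4.1e-13) in Mll1-KO cells.

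Several targets were close to the lower limit of counting in the mutants. For Stc1, Ppp1r3c and Adm the filter itself favoured a fall, since no more than 1 of the 9 mutant libraries reached it, and their values are given as a description. Stc1, a secreted calcium-regulating glycoprotein, had 0, 0 and 0.86 normalized counts in double-KO, 0, 0 and 0 in Mll2-KO and 4.12, 4.88 and 5.06 in Mll1-KO cells, against 41.4, 67.6 and 60.6 in WT cells. With 0 reads in Mll2-KO cells and 221 in WT cells, Stc1 was at least 22.9-fold lower in Mll2-KO cells. The floor taken was 3 reads in each Mll2-KO library, a mean of 2.46 normalized counts. With 1 read in double-KO cells, the ratio of WT to double-KO was 190, with a 95% counting interval of 33.8 to 7550 that covers counting error only. Ppp1r3c, which targets a phosphatase to glycogen, had 1.97, 0 and 0 in double-KO, 7.16, 6.45 and 9.91 in Mll2-KO and 1.03, 4.88 and 17.7 in Mll1-KO cells, against 62.0, 57.7 and 68.3 in WT cells. Its 2 double-KO reads gave a ratio of WT to double-KO of 105, with an interval of 28.9 to 875. Adm, which encodes the vasodilator peptide adrenomedullin, had 5.92, 0 and 0.86 in double-KO, 4.48, 4.03 and 3.81 in Mll2-KO and 7.20, 14.6 and 7.59 in Mll1-KO cells, against 42.9, 93.4 and 90.1 in WT cells, and no mutant library reached the lowest WT library. The log2 fold change of Adm was -4.95 in double-KO, -3.82 in Mll2-KO and -2.81 in Mll1-KO cells. Ankrd37, an ankyrin-repeat protein of unsure function, had 5.92, 22.7 and 13.8 in double-KO, 25.1, 24.2 and 11.4 in Mll2-KO and 38.1, 52.7 and 53.1 in Mll1-KO cells, against 175, 218 and 210.5 in WT cells. Double-KO and Mll2-KO libraries overlapped, Mll1-KO lay above them and WT above all, with changes of -3.90 ± 0.35 (adjusted p = 1.3e-08) in double-KO, -3.32 ± 0.35 (adjusted p = 2.2e-07) in Mll2-KO and -2.05 ± 0.35 (adjusted p = 9e-05) in Mll1-KO cells. Its position overlaps Lrp2bp and Ufsp2 on the other strand, and the strand setting of the counting is not given in the sources used here.

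Ndufa4l2, a mitochondrial protein related to a respiratory-chain subunit, had 55.2, 48.8 and 58.5 normalized counts in double-KO, 34.0, 46.0 and 43.5 in Mll2-KO and 39.1, 26.4 and 40.5 in Mll1-KO cells, against 368, 504 and 609.6 in WT cells. Mll2-KO and Mll1-KO libraries overlapped, double-KO libraries lay above both, and all 9 were below WT. The changes were -3.14 ± 0.20 (adjusted p = 1.1e-10) in double-KO, -3.53 ± 0.20 (adjusted p = 4.2e-11) in Mll2-KO and -3.76 ± 0.20 (adjusted p = 1.5e-11) in Mll1-KO cells. Ndufa4l2 overlaps Shmt2 on the other strand. Higd1a, a small mitochondrial protein induced by hypoxia, changed by -1.05 to -1.27 over the 3 mutants.

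P4ha1, P4ha2 and Ddit4 were lowest where Mll1 was lost. P4ha2, a subunit of collagen prolyl hydroxylase, had 164, 182 and 175 normalized counts in double-KO, 781, 641 and 829 in Mll2-KO and 164, 168 and 153 in Mll1-KO cells, against 1110.2, 1209.9 and 1201 in WT cells. Double-KO and Mll1-KO libraries overlapped at the bottom, and Mll2-KO lay between them and WT. P4ha2 changed by -2.75 ± 0.09 (adjusted p = 4.4e-15) in double-KO, -0.65 ± 0.09 (adjusted p = 8.4e-06) in Mll2-KO and -2.86 ± 0.09 (adjusted p = 2.1e-15) in Mll1-KO cells, and double-KO differed from Mll2-KO cells by -2.10 ± 0.09 (adjusted p = 4.2e-13). P4ha1, the other alpha subunit, changed by -2.36 ± 0.09 (adjusted p = 1.2e-14) in double-KO, -1.15 ± 0.09 (adjusted p = 1.6e-09) in Mll2-KO and -1.80 ± 0.09 (adjusted p = 1.4e-12) in Mll1-KO cells. Ddit4, a stress-induced inhibitor of mTOR signalling also known as REDD1, changed by -0.97 ± 0.11 (adjusted p = 4.3e-07) in double-KO and -1.63 ± 0.11 (adjusted p = 5.4e-10) in Mll1-KO cells. In Mll2-KO cells Ddit4 changed by -0.35 ± 0.11 (adjusted p = 0.013), and 1 of its 3 libraries lay within the WT range. Markers of primitive endoderm moved with Mll1 as well: all 18 tested of 21 fell in Mll1-KO and in double-KO cells, with medians of -2.70 and -2.71. Their summed level was 11410 to 11750 normalized counts in double-KO, 45208 to 47820 in Mll2-KO and 10778 to 11886 in Mll1-KO cells, against 42939 to 45199 in WT cells, with Ttr and Afp at 0 in each mutant group and Afp at 0 in WT cells. Over all genes 18.7% fell in Mll1-KO and 27.1% in double-KO cells. The part of the primitive endoderm markers in the fall of P4ha1 and P4ha2 was not tested.

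Kdm3a and Vegfa went against the list. Kdm3a, a histone demethylase, had 1846, 1726 and 1660.0 normalized counts in double-KO, 942, 1003 and 1003 in Mll2-KO and 2049, 1847 and 1938 in Mll1-KO cells, against 1459, 1338 and 1413 in WT cells. It rose where Mll1 was lost, by 0.31 ± 0.06 (adjusted p = 0.00012) in double-KO and 0.47 ± 0.06 (adjusted p = 1.8e-06) in Mll1-KO cells, and in Mll2-KO cells it changed by -0.51 ± 0.06 (adjusted p = 4.9e-07). Vegfa, the blood vessel growth factor, had 1424, 1507 and 1512 in double-KO, 2154, 2004 and 2353 in Mll2-KO and 1059, 1103 and 1052 in Mll1-KO cells, against 1458, 1558 and 1593 in WT cells. Mll2-KO libraries lay above WT, Mll1-KO libraries below it, and double-KO libraries overlapped WT. Vegfa rose by 0.50 ± 0.06 (adjusted p = 1.1e-06) in Mll2-KO cells and changed by -0.52 ± 0.06 (adjusted p = 7e-07) in Mll1-KO cells. Ero1l, an endoplasmic reticulum oxidase, fell in all 3 mutants (-0.57 to -1.12), as did Mxi1, a MYC antagonist (-0.38 to -0.63). Car9, a carbonic anhydrase, did not pass the test in any, at 3.90 to 23.27 normalized counts over the 12 day 0 libraries. The integrated stress response is an arm of the response to amino acid and protein folding stress that also drives Ddit4 and Vegfa. Of its 15 listed genes, 15 rose in double-KO and in Mll2-KO cells, and 9 rose and 1 fell in Mll1-KO cells. Their summed level was 64601 to 67755 in double-KO, 66026 to 76144 in Mll2-KO and 51989 to 54416 in Mll1-KO cells, against 46363 to 47003 in WT cells, with none at 0, and their part in these results was not tested. Over all genes 26.6% rose in double-KO, 22.8% in Mll2-KO and 21.3% in Mll1-KO cells.

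Set side by side, the other HIF targets had a lower median than the enzymes in every mutant at day 0, by little in Mll2-KO cells once 3 low targets were left out. The median log2 fold change of the 16 enzymes and of the 17 other targets was -0.48 and -2.12 in double-KO, -0.82 and -1.27 in Mll2-KO, and -0.60 and -1.64 in Mll1-KO cells. The difference of these medians was 1.65 in double-KO, 0.44 in Mll2-KO and 1.04 in Mll1-KO cells. Taken in each mutant library against the WT mean, it was 1.58, 1.67 and 1.69 in the double-KO libraries, 0.48, 0.57 and 0.43 in the Mll2-KO libraries, and 1.02, 0.96 and 1.14 in the Mll1-KO libraries. In double-KO and Mll2-KO cells part of it rests on the 3 targets that reached the filter only through WT. Without Adm, Stc1 and Ppp1r3c the median of the other targets was -1.53 in double-KO, -0.90 in Mll2-KO and -1.61 in Mll1-KO cells, and the difference was 1.05 in double-KO, 0.08 in Mll2-KO and 1.01 in Mll1-KO cells, an alternative chosen after seeing the data. These are descriptions over listed genes, which are not replicates, and no p is given for them. The 17 other targets held 0.0601 ± 0.0011% of reads in double-KO, 0.0725 ± 0.0076% in Mll2-KO and 0.0576 ± 0.00015% in Mll1-KO cells, against 0.140 ± 0.013% in WT cells. At day 4 the difference of the medians was -0.08 in double-KO, -0.03 in Mll2-KO and -0.06 in Mll1-KO cells. Per library it was 0.03, -0.10 and -0.14 in double-KO, -0.03, 0.02 and -0.01 in Mll2-KO, and 0.09, -0.06 and -0.01 in Mll1-KO cells, so each genotype held libraries on both sides of 0. Each difference of the medians changed sign without day 4 WT replicate 3, to 0.01 in double-KO, 0.05 in Mll2-KO and 0.06 in Mll1-KO cells. Without day 4 Mll1-KO replicate 2 the Mll1-KO difference was 0.02.

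**Figure D3:**
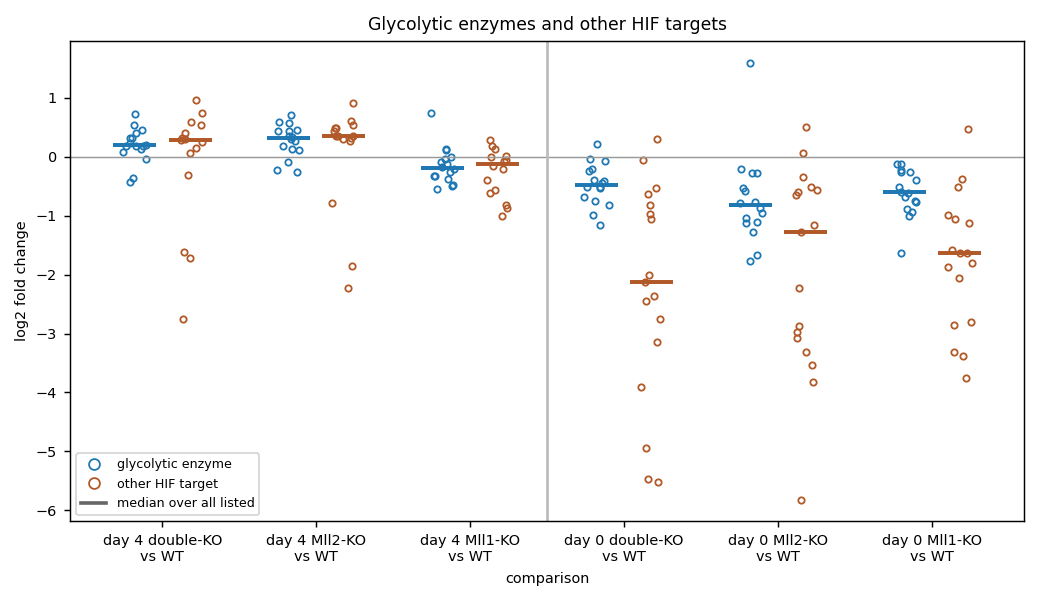
Log2 fold change over WT of each glycolytic enzyme (blue) and each other HIF target (brown) in the 3 mutants at day 4 (left) and day 0 (right), where a circle is a gene with a tested change and a bar is the median over all 16 enzymes or all 17 other targets. The brown medians of day 0, between -2.12 and -1.27, lie below the blue ones, and at day 4 both medians lie near 0.

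In the double-KO at day 0 the list did not fall by the sum of the single losses. The test of non-additivity subtracts the Mll2 effect in cells with Mll1 (Mll2-KO against WT) from that in cells without it (double-KO against Mll1-KO). It was positive for 30 of 39 members and negative for none, with a median of 0.87, whereas 9.13% of all genes tested were called, 4.42% positive and 4.71% negative, and the median of all genes was -0.02. WT libraries enter this contrast with a plus sign, and Stc1, tested only through WT, is 1 of the 30. Against Mll1-KO cells directly, 11 members were higher and 16 lower in double-KO cells (median 0.00, with 41.0% of all genes called, 18.9% higher and 22.0% lower). Against Mll2-KO cells, 19 were higher and 10 lower (median 0.21, with 47.7% of all genes called, 23.4% higher and 24.3% lower). Scaled to column totals, 17 were higher and 11 lower than in Mll2-KO cells, and the share of called genes that were higher was 38.1%, against 49.0%. Of the 16 enzymes 12 were higher in double-KO than in Mll2-KO cells, among them Ldha by 0.95 ± 0.08 (adjusted p = 1.3e-08), Tpi1 by 0.92 ± 0.06 (adjusted p = 1.6e-10) and Pgk1 by 0.75 ± 0.05 (adjusted p = 5.6e-10). Slc16a3 was also higher in double-KO than in Mll2-KO cells, by 1.12 ± 0.09 (adjusted p = 3.6e-09), and Bnip3 by 0.96 ± 0.07 (adjusted p = 7.4e-10). The enzymes lower in double-KO than in Mll2-KO cells were Hk1 at -0.50 ± 0.07 (adjusted p = 9.1e-06), Pfkm at -0.71 ± 0.09 (adjusted p = 2.1e-06) and Eno2 at -1.39 ± 0.19 (adjusted p = 4.9e-06). These comparisons hold no WT library, but the day 0 filter counts WT libraries, and Adm, Stc1 and Ppp1r3c reached it only through them. With day 0 WT out of the fit, an alternative chosen after seeing the data, 36 members were tested. Then 11 were higher and 14 lower in double-KO than in Mll1-KO cells, and 19 higher and 9 lower than in Mll2-KO cells.

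Over differentiation of WT cells, 32 members fell and 4 rose (median -1.12), against 82.9% of 15114 genes called, 43.0% higher and 39.9% lower, and a median of 0.04 over all genes. Retinoic acid, serum level, leukemia inhibitory factor and time differ together between the days. Of the 16 enzymes 15 fell, with a median of -1.21. Pfkp had 101, 150.4 and 140.2 normalized counts at day 4, against 2879.8, 3453 and 3269 at day 0, the largest fall among enzymes at -4.62 ± 0.12 (adjusted p = 3.9e-23). With it the log2 ratio of Pfkl to Pfkp was 4.87 ± 0.25 at day 4, against 0.95 ± 0.03 at day 0 in WT cells. Ldha had 8175, 8506 and 8907 at day 4, against 30105, 32861 and 33163 at day 0, a change of -1.91 ± 0.07 (adjusted p = 4.5e-19). Hk2 changed by -1.06 ± 0.04 (adjusted p = 5.7e-19) and Pkm, pyruvate kinase, by -1.81 ± 0.05 (adjusted p = 1.2e-22). Ndufa4l2 changed by -5.21 ± 0.27 (adjusted p = 2.7e-16) and Egln3 by -3.72 ± 0.17 (adjusted p = 1.7e-17).

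The members that rose in WT cells by day 4 were Eno2, Pfkfb4, P4ha1 and P4ha2. P4ha1 had 3678, 3356 and 3541 normalized counts at day 4, against 1480.1, 1700.5 and 1716 at day 0, a rise of 1.11 ± 0.07 (adjusted p = 5.8e-14). P4ha2 had 2208, 2150.2 and 2277 at day 4, against 1110.2, 1209.9 and 1201 at day 0, a rise of 0.91 ± 0.07 (adjusted p = 1e-12). All day 4 libraries lay above all day 0 libraries for both genes. The summed primitive endoderm markers were 283764 to 292110 at day 4, against 42939 to 45199 at day 0 in WT cells, and their part in these rises was not tested. Eno2 rose by 1.15 ± 0.16 (adjusted p = 1.4e-07) and Pfkfb4, a sister enzyme of Pfkfb3, by 0.90 ± 0.20 (adjusted p = 0.00019). Pfkfb3 changed by 0.02 ± 0.10 (adjusted p = 0.87), Adm by -0.21 ± 0.47 (adjusted p = 0.67) and Ppp1r3c by -0.68 ± 0.53 (adjusted p = 0.23).

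In mutant cells the same period gave fewer falls, and levels at day 0 differ between the genotypes, as described. In double-KO cells 15 members rose and 20 fell (83.3% of all genes called, 43.2% higher and 40.1% lower). In Mll2-KO cells 16 rose and 17 fell (81.5% called, 41.9% higher and 39.6% lower), and in Mll1-KO cells 9 rose and 23 fell (84.1% called, 43.7% higher and 40.4% lower). Slc2a1 shows the contrast: it rose by 0.93 ± 0.06 (adjusted p = 7.6e-15) in Mll2-KO cells, against -0.75 ± 0.06 (adjusted p = 6.8e-13) in WT cells. Slc16a3 rose by 1.72 ± 0.08 (adjusted p = 6.8e-17) in Mll2-KO cells, against -1.49 ± 0.08 (adjusted p = 1.6e-15) in WT cells. P4ha2 rose in every genotype, most in double-KO cells at 4.25 ± 0.07 (adjusted p = 9.4e-28).

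**Figure D4:**
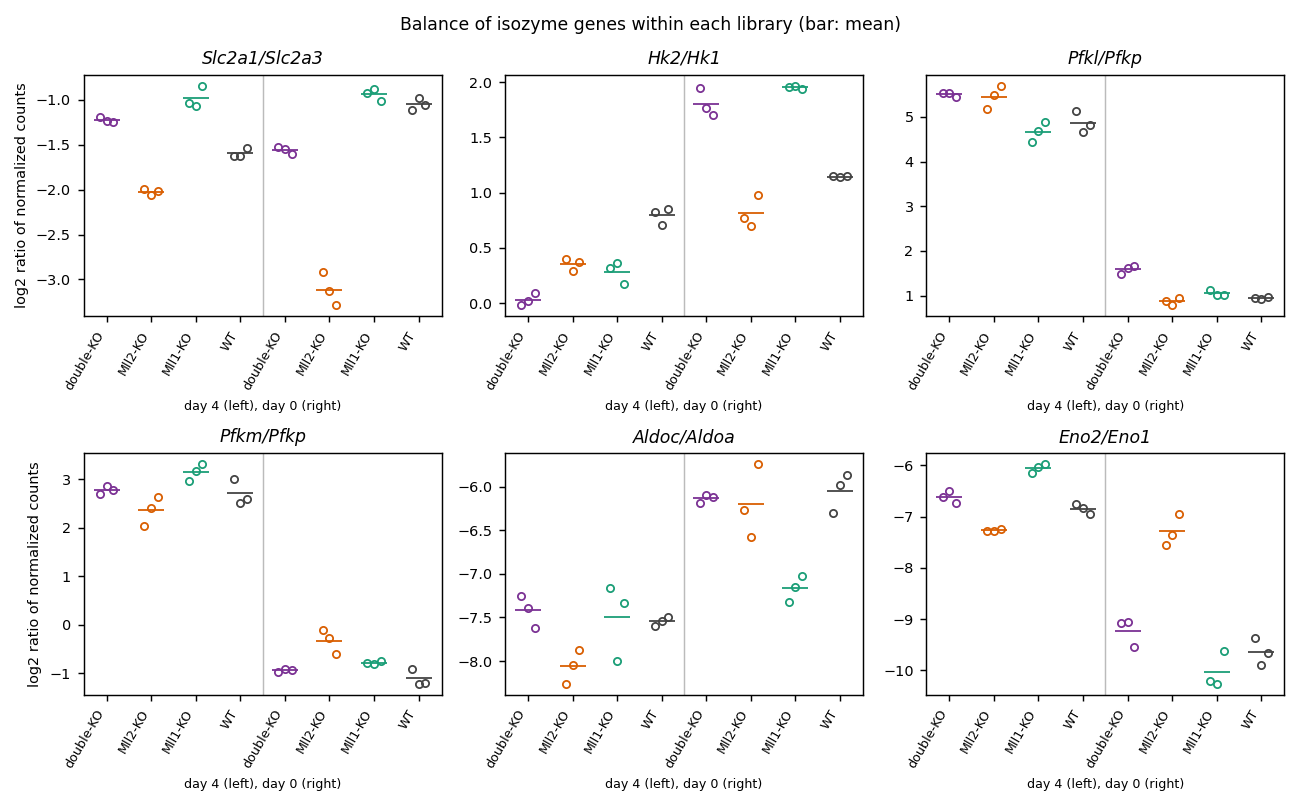
Log2 ratio of normalized counts between genes for related proteins (vertical axes, not corrected for gene length) in each library (circles) with the group mean (bar), for double-KO, Mll2-KO, Mll1-KO and WT cells at day 4 (left of the line) and day 0 (right). The Slc2a1 to Slc2a3 ratio is lowest in day 0 Mll2-KO cells at -3.11, and the Pfkl to Pfkp ratio is higher at day 4 than at day 0 in every genotype.

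By day 4 the mutants no longer shared 1 direction. In Mll2-KO cells 26 members rose and 6 fell (median 0.32), against 45.7% of 14303 genes called, 25.4% higher and 20.3% lower, and a median of 0.04 over all genes. In double-KO cells 24 rose and 8 fell (median 0.23), against 50.9% called, 27.6% higher and 23.3% lower, and a median of 0.03. In Mll1-KO cells 20 fell and 3 rose (median -0.17), against 35.8% called, 16.5% higher and 19.2% lower, and a median of 0.00. Stc1 and Car9 were too low to test at day 4, with at most 9.82 and 7.02 normalized counts. Without day 4 WT replicate 3, 3 members were lower in Mll2-KO cells. The split of all called genes at day 4 depends on the scaling. The share that were higher was 41.3% in double-KO, 34.4% in Mll2-KO and 60.3% in Mll1-KO cells when libraries were scaled to their column totals, against 54.2%, 55.6% and 46.2% in that order as deposited. Under that scaling 22 members were higher and 8 lower in double-KO, 21 higher and 7 lower in Mll2-KO, and 5 higher and 18 lower in Mll1-KO cells.

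Of the 16 enzymes at day 4, 11 rose and 2 fell in double-KO, 12 rose and 2 fell in Mll2-KO, and 1 rose and 8 fell in Mll1-KO cells. Over all genes 27.6% rose and 23.3% fell in double-KO, 25.4% and 20.3% in Mll2-KO, and 16.5% and 19.2% in Mll1-KO cells. These splits of all genes depend on the scaling, as given above. Pfkl had 4532, 4354 and 4203 normalized counts in double-KO, 6095, 6431 and 6059 in Mll2-KO and 2549.9, 2573 and 2706 in Mll1-KO cells, against 3576, 3810.2 and 3999.7 in WT cells. Double-KO and Mll2-KO libraries lay above WT and Mll1-KO libraries below. Pfkl changed by 0.20 ± 0.04 (adjusted p = 0.00051), 0.71 ± 0.04 (adjusted p = 3e-12) and -0.54 ± 0.04 (adjusted p = 7.2e-10) in double-KO, Mll2-KO and Mll1-KO cells in that order. Ldha had 12461, 12716 and 11902 in double-KO, 12703, 12448 and 12849 in Mll2-KO and 6150.4, 6264 and 6083 in Mll1-KO cells, against 8175, 8506 and 8907 in WT cells. Double-KO and Mll2-KO libraries overlapped above WT, and Mll1-KO lay below it. Ldha changed by 0.54 ± 0.04 (adjusted p = 2.2e-11) in double-KO, 0.57 ± 0.04 (adjusted p = 1.3e-11) in Mll2-KO and -0.47 ± 0.04 (adjusted p = 8e-10) in Mll1-KO cells. Hk1 rose by 0.72 ± 0.06 (adjusted p = 3.8e-10) in double-KO and 0.59 ± 0.06 (adjusted p = 2.3e-08) in Mll2-KO cells, while its change in Mll1-KO cells was 0.14 ± 0.06 (adjusted p = 0.07). The enzymes held 0.994 ± 0.025% of reads in double-KO, 1.07 ± 0.02% in Mll2-KO and 0.812 ± 0.016% in Mll1-KO cells, against 0.893 ± 0.044% in WT cells at day 4. In Mll2-KO cells the enzymes that fell were Pfkm at -0.23 ± 0.06 (adjusted p = 0.0019) and Eno2 at -0.25 ± 0.10 (adjusted p = 0.041), and the Eno2 call was lost when any 1 of its 6 libraries was left out (adjusted p 0.059 to 0.11).

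In double-KO cells the enzymes that fell were Pfkm at -0.36 ± 0.06 (adjusted p = 9e-06) and Pfkp at -0.42 ± 0.15 (adjusted p = 0.025), and the Pfkp call was lost without day 4 WT replicate 2 (-0.31, adjusted p = 0.14), WT replicate 3 (-0.36, adjusted p = 0.096) or double-KO replicate 2 (-0.41, adjusted p = 0.06).

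In Mll1-KO cells at day 4 the enzyme that rose was Eno2, with 264, 288 and 308 normalized counts, against 175, 167 and 167 in WT cells and no overlap. The change of Eno2 was 0.75 ± 0.10 (adjusted p = 1.1e-06), and it was also higher in double-KO cells, at 0.45 ± 0.10 (adjusted p = 0.00038). Pgk1 changed by -0.49 ± 0.05 (adjusted p = 4.8e-09) and Tpi1 by -0.33 ± 0.04 (adjusted p = 1e-07) in Mll1-KO cells, while both rose in Mll2-KO cells, by 0.45 ± 0.05 (adjusted p = 1.2e-08) and 0.43 ± 0.04 (adjusted p = 7.7e-10). Slc2a3 had 15156, 15350.2 and 16266 in double-KO, 27529, 29249 and 27803 in Mll2-KO and 11766, 11881 and 10277 in Mll1-KO cells, against 22347, 22876 and 23928 in WT cells. As at day 0, it was above WT in Mll2-KO libraries and below WT where Mll1 was lost, at -0.56 ± 0.05 (adjusted p = 4.1e-10) in double-KO, 0.29 ± 0.05 (adjusted p = 2.2e-05) in Mll2-KO and -1.03 ± 0.05 (adjusted p = 1.8e-14) in Mll1-KO cells. Slc2a1 was lower in each mutant, at -0.19 ± 0.04 (adjusted p = 0.00046) in double-KO, -0.13 ± 0.04 (adjusted p = 0.011) in Mll2-KO and -0.41 ± 0.04 (adjusted p = 2.5e-08) in Mll1-KO cells, and the Mll2-KO call was lost without day 4 WT replicate 3 (-0.08, adjusted p = 0.12).

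Among other HIF targets at day 4, P4ha2 rose most in Mll2-KO cells, with 3448, 3279 and 3240.2 normalized counts in double-KO, 4196, 4172 and 4069 in Mll2-KO and 1418, 1519.5 and 1576 in Mll1-KO cells, against 2208, 2150.2 and 2277 in WT cells. The genotypes did not overlap, with Mll1-KO below WT. P4ha2 changed by 0.59 ± 0.04 (adjusted p = 4.4e-11) in double-KO, 0.91 ± 0.04 (adjusted p = 2.6e-14) in Mll2-KO and -0.56 ± 0.04 (adjusted p = 3.5e-10) in Mll1-KO cells. Bnip3 rose by 0.32 ± 0.07 (adjusted p = 0.00035) in Mll2-KO cells, and changed by -0.82 ± 0.07 (adjusted p = 4.5e-10) in Mll1-KO and 0.07 ± 0.07 (adjusted p = 0.43) in double-KO cells. Egln1 rose by 0.28 ± 0.05 (adjusted p = 2.4e-05) in double-KO and 0.27 ± 0.05 (adjusted p = 4.9e-05) in Mll2-KO cells, and changed by 0.01 ± 0.05 (adjusted p = 0.85) in Mll1-KO cells. Egln3 rose by 0.49 ± 0.18 (adjusted p = 0.031) in Mll2-KO cells, against changes of -0.87 ± 0.18 (adjusted p = 0.0006) in Mll1-KO and -0.31 ± 0.18 (adjusted p = 0.17) in double-KO cells. Ddit4 rose in all 3 mutants, by 0.75 ± 0.06 (adjusted p = 7.7e-11) in double-KO, 0.35 ± 0.06 (adjusted p = 2.4e-05) in Mll2-KO and 0.28 ± 0.06 (adjusted p = 0.00058) in Mll1-KO cells, where the adjusted p was 0.051 with all 24 libraries fitted together. Ndufa4l2 rose by 0.97 ± 0.33 (adjusted p = 0.018) in double-KO cells, a call lost without day 4 WT replicate 1 (0.71, adjusted p = 0.11) or double-KO replicate 3 (0.87, adjusted p = 0.068).

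Ankrd37, Adm and Ppp1r3c were low where Mll2 was lost. Adm had 19.0, 16.9 and 22.8 normalized counts in double-KO, 8.82, 10.2 and 20.7 in Mll2-KO and 76.0, 56.3 and 79.9 in Mll1-KO cells, against 46.7, 73.2 and 67.2 in WT cells. Double-KO and Mll2-KO libraries lay below all others, and Mll1-KO libraries overlapped WT. Adm changed by -1.61 ± 0.28 (adjusted p = 3e-05) in double-KO and -2.22 ± 0.28 (adjusted p = 4.1e-07) in Mll2-KO cells, and by 0.19 ± 0.28 (adjusted p = 0.64) in Mll1-KO cells. Ankrd37 had 4.6 to 12.3 in double-KO, 13.7, 16.3 and 16.4 in Mll2-KO and 23.9, 30.9 and 32.2 in Mll1-KO cells, against 37.6, 70.2 and 75.4 in WT cells. It was lowest in double-KO cells, where the change was -2.76 ± 0.32 (adjusted p = 1e-07), and the change was -1.86 ± 0.32 (adjusted p = 4.4e-05) in Mll2-KO cells. In Mll1-KO cells all 3 libraries lay below WT and Ankrd37 fell (adjusted p = 0.018), a call lost without day 4 WT replicate 2 (-0.87, adjusted p = 0.092), WT replicate 3 (-0.82, adjusted p = 0.1) or Mll1-KO replicate 1 (-0.87, adjusted p = 0.071). Ppp1r3c had 5.60, 18.4 and 12.6 in double-KO and 16.7, 27.5 and 22.9 in Mll2-KO cells, against 31.5, 42.1 and 43.6 in WT cells. Its change was -1.72 ± 0.32 (adjusted p = 7.4e-05) in double-KO cells, and -0.79 ± 0.32 (adjusted p = 0.046) in Mll2-KO cells, where leaving out WT replicate 2 or 3 or Mll2-KO replicate 1 or 3 ended the call (-0.60 to -0.82, adjusted p 0.077 to 0.18).

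Cell-type markers moved beside these changes at day 4. The 15 pluripotency markers, none at 0, summed to 9119 to 9674 normalized counts in double-KO, 14167 to 16050 in Mll2-KO and 5792 to 6514 in Mll1-KO cells, against 9793 to 11365 in WT cells. Of them 10 rose and 1 fell in Mll2-KO cells, and 14 fell in Mll1-KO cells. Over all genes 25.4% rose and 20.3% fell in Mll2-KO cells, and 19.2% fell in Mll1-KO cells. The 21 primitive endoderm markers, none at 0, summed to 236735 to 244344 in double-KO, 401255 to 414371 in Mll2-KO and 154478 to 161348 in Mll1-KO cells, against 283764 to 292110 in WT cells. Both sums were above WT in Mll2-KO cells and below WT in Mll1-KO cells, as was the enzymes' share of reads. In double-KO cells both sums were below WT while the enzymes' share was above it. The 15 integrated stress response genes summed to 14254 to 14704 in double-KO, 15756 to 16427 in Mll2-KO and 11658 to 12056 in Mll1-KO cells, against 11836 to 12595 in WT cells, so this sum was above WT where Mll2 was lost. The 10 neural markers summed to 6825 to 7333 in double-KO, 4209 to 5036 in Mll2-KO and 5373 to 6109 in Mll1-KO cells, against 4387 to 4883 in WT cells. The 9 trophectoderm markers summed to 32553 to 35930 in double-KO, 30325 to 33397 in Mll2-KO and 27593 to 30988 in Mll1-KO cells, against 37033 to 38384 in WT cells. The part of all these markers in the results was not tested.

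The test of whether an effect differed between days compared each mutant's change over WT at day 4 with that at day 0. The effect was higher at day 4 for 30 members and lower for none in double-KO cells (median 0.88, 39.4% of all genes called, 20.3% higher and 19.2% lower). It was higher for 32 and lower for 1 in Mll2-KO cells (median 1.17, 36.3% of all genes called, 19.3% higher and 17.0% lower), and higher for 29 and lower for 3 in Mll1-KO cells (median 0.76, 34.0% called, 15.0% higher and 19.0% lower). Scaled to column totals, the share of called genes with a higher effect at day 4 was 37.5% in Mll2-KO and 64.7% in Mll1-KO cells, against 53.2% and 44.0% as deposited, while 32 members were higher and 1 lower in Mll2-KO and 31 higher and 1 lower in Mll1-KO cells. The 3 tests share the WT libraries of both days, and Stc1 is among the members higher in each. For Bnip3 in Mll2-KO cells the effects were 0.32 at day 4 and -2.97 at day 0, a difference of 3.29 ± 0.11 (adjusted p = 2.7e-18). For Slc16a3 they were 0.22 at day 4 and -3.00 at day 0, a difference of 3.22 ± 0.12 (adjusted p = 3e-17). Eno2 was the member with a lower effect at day 4, -0.25 against 1.60 at day 0, a difference of -1.85 ± 0.22 (adjusted p = 2.8e-07). The differences of Slc2a3 and Vegfa, which were above WT on both days in Mll2-KO cells, were 0.04 ± 0.08 (adjusted p = 0.73) and -0.01 ± 0.07 (adjusted p = 0.96).

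**Figure D5:**
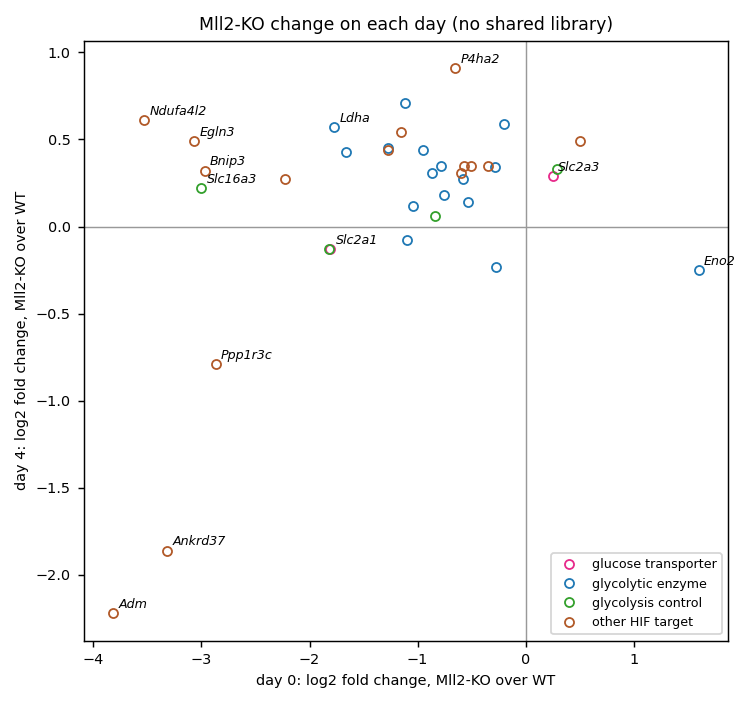
Log2 fold change of Mll2-KO over WT cells at day 4 (vertical axis) and at day 0 (horizontal axis) for the 37 members tested on both days, coloured by role. Most members lie left of 0 and above 0. Adm, Ankrd37 and Ppp1r3c lie below 0 on both axes, and Eno2 is alone at the lower right (1.60 at day 0 and -0.25 at day 4).

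At day 4 double-KO cells lay nearer to Mll2-KO than to Mll1-KO cells by the number of members called. Against Mll1-KO cells 29 members were higher and 5 lower in double-KO cells (median 0.44, with 54.8% of all genes called, 31.1% higher and 23.7% lower). Scaled to column totals, 27 were higher and 5 lower, and the share of called genes that were higher was 36.1%, against 56.7%. Against Mll2-KO cells 4 were higher and 16 lower (median -0.09, with 40.3% called, 19.4% higher and 20.9% lower). Ldha was higher in double-KO than in Mll1-KO cells by 1.00 ± 0.04 (adjusted p = 1.4e-16) and P4ha2 by 1.14 ± 0.04 (adjusted p = 1.3e-16). Slc2a3 was lower in double-KO than in Mll2-KO cells, at -0.85 ± 0.05 (adjusted p = 5.4e-13). Non-additivity was called for 10 of 37 members, 9 of them positive (13.6% of all genes called, 7.59% positive and 6.05% negative), and for 5 when all 24 libraries were fitted together.

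Listed genes of the HIF pathway were called in both directions at day 0, and Hif1a was higher in all 3 mutants. Hif1a, the oxygen-regulated alpha subunit, averaged 3650 ± 172 normalized counts in double-KO, 3200 ± 212 in Mll2-KO and 3120 ± 112 in Mll1-KO cells, against 2190 ± 78.1 in WT cells at day 0 (SD, n = 3 each). It rose in all 3 mutants, by 0.74 ± 0.05 (adjusted p = 6e-10) in double-KO, 0.54 ± 0.05 (adjusted p = 9.4e-08) in Mll2-KO and 0.51 ± 0.05 (adjusted p = 2.5e-07) in Mll1-KO cells. RNA levels do not report the stability of the protein. Vhl, which marks the alpha subunits for degradation, changed by -0.37 ± 0.08 (adjusted p = 0.00096) in double-KO, -0.20 ± 0.08 (adjusted p = 0.058) in Mll2-KO and -0.56 ± 0.08 (adjusted p = 2.2e-05) in Mll1-KO cells. Arnt2, a partner of the alpha subunits, averaged 117 ± 32.6 in double-KO, 153 ± 13.0 in Mll2-KO and 937 ± 56.4 in Mll1-KO cells, against 581 ± 13.9 in WT cells at day 4. It was lower where Mll2 was lost and higher in Mll1-KO cells, with changes of -2.34 ± 0.13 (adjusted p = 1.3e-13), -1.92 ± 0.13 (adjusted p = 1e-11) and 0.69 ± 0.13 (adjusted p = 0.00015) in double-KO, Mll2-KO and Mll1-KO cells in that order. Of the 13 pathway genes listed, 6 rose and 4 fell in double-KO, 4 rose and 4 fell in Mll2-KO, and 5 rose and 2 fell in Mll1-KO cells at day 0, with medians of 0.13, 0.03 and 0.03 in that order. Among all genes 53.7%, 47.2% and 40.0% were called in the same comparisons. At day 4, 3 rose and 4 fell in double-KO, 2 rose and 4 fell in Mll2-KO, and 3 rose and 4 fell in Mll1-KO cells. The shares of all genes called at day 4 were 50.9%, 45.7% and 35.8% in that order. Nothing particular to these genes is read from the counts, and their part in the changes of the members was not tested.

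A further 30 known HIF targets outside the list were looked up, also chosen with earlier results of these data known. Of them 29 could be tested at day 0. Those named below, Ndrg1 and Bhlhe40, fell in every mutant, and those that rose are counted but not named. In double-KO cells 6 rose and 16 fell (median -0.40), in Mll2-KO cells 5 rose and 19 fell (median -0.71), and in Mll1-KO cells 3 rose and 19 fell (median -0.49). Among all genes 26.6% were higher and 27.1% lower in double-KO, 22.8% and 24.3% in Mll2-KO, and 21.3% and 18.7% in Mll1-KO cells. Ndrg1, a hypoxia-induced differentiation gene, changed by -1.26 ± 0.10 (adjusted p = 2.3e-09) in double-KO, -1.50 ± 0.10 (adjusted p = 3.3e-10) in Mll2-KO and -1.92 ± 0.10 (adjusted p = 8e-12) in Mll1-KO cells. Bhlhe40, a transcriptional repressor, changed by -1.18 ± 0.15 (adjusted p = 2e-06) in double-KO, -1.54 ± 0.15 (adjusted p = 1e-07) in Mll2-KO and -2.44 ± 0.15 (adjusted p = 1.4e-10) in Mll1-KO cells. At day 4, 14 of 30 rose and 7 fell in Mll2-KO cells, 14 rose and 9 fell in double-KO cells, and 3 rose and 9 fell in Mll1-KO cells. Among all genes 25.4% were higher and 20.3% lower in Mll2-KO, 27.6% and 23.3% in double-KO, and 16.5% and 19.2% in Mll1-KO cells.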

How the data were processed

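PolyA RNA was sequenced in 24 libraries, 3 in each of 8 groups set by genotype and day. The deposited values are a signal per gene: judged from the values, the authors' read counts divided by 1 size factor per library. The submitters' processing notes name STAR 2.7.10a, RSEM 1.3.1 and DESeq2 1.34.0 and the mm10 build. The annotation and strand setting are not given in the sources used here. Multiplied by the size factor, 100% of values were whole within 1e-06, so whole reads (10.75 to 22.79 M per library) were recovered.

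Tests used limma 3.58.1 with a trend, in R 4.3.3, on log2(normalized count + 1), keeping a gene when 3 or more libraries of that day reached 10 (of all 24 for comparisons between days), with Benjamini-Hochberg adjustment over all genes tested. edgeR 4.0.16 on the recovered reads and DESeq2 1.42.0 were alternatives, with other filters, pseudocounts, scalings and left-out libraries. The procedure was tested on simulated data. With 3 libraries against 3, a permutation test cannot go below 0.1, so none is given.

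Replicate numbers did not pair the libraries: the residuals of same-numbered libraries had a median r of 0.00568 (-0.0446 to 0.0768). Replicates differed by more than sampling noise (chi-square per degree of freedom 1.852 to 11.48). Positions and exon lengths are from GENCODE mouse release M21.

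The members and all lists were chosen with earlier results of these data known. In each comparison the text names, per role, up to 4 members with the largest falls and up to 2 with the largest rises among those called; other members named were chosen after their values were seen.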

Additional observations from a re-analysis of the deposited data

Results flagged for a closer look

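Each result here is a difference of effects that was itself tested with limma, and each test contains WT libraries, so the values are not independent of each other. No explanation was tested for any of them.

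Over all 39 members the median Mll2 effect at day 0 was -0.95 with Mll1 and 0.00 without it. These medians include Adm, Stc1 and Ppp1r3c, which reached the day 0 filter only through WT. Without them the median with Mll1 was -0.85. In signed value the effect without Mll1 was the higher for 30 members, Stc1 among them, against 4.42% of all genes tested. WT libraries enter this difference with a plus sign, which favours a positive value for a gene tested only through WT. Among enzymes the largest such difference was that of Aldoc at 2.21, and among other HIF targets that of Ndufa4l2 at 4.16. At day 4 the same test was positive for 9 members, against 7.59% of all genes tested, and for 5 when all 24 libraries were fitted together. Ldha had 0.43, Bnip3 had 0.57 and Pfkm had -0.24, a value that was no longer called in most fits that left out 1 library.

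Effects that differed between the days were higher at day 4 for 29 members in Mll1-KO, 32 in Mll2-KO and 30 in double-KO cells. Stc1, which reached the filter only through day 0 WT libraries, is among them in each. Over all genes tested 15.0%, 19.3% and 20.3% were higher in that order. In Mll1-KO cells the differences, day 4 minus day 0, were 1.44 for Aldoc, 3.69 for Ndufa4l2, -0.25 for Hk2 (-0.14, adjusted p = 0.075, when scaled to column totals) and -0.62 for Kdm3a. In Mll2-KO cells they were 2.34 for Ldha, 4.14 for Ndufa4l2 and -1.85 for Eno2. In double-KO cells they were 1.42 for Hk1 and 4.11 for Ndufa4l2. Ndufa4l2 had at most 28.51 normalized counts in any day 4 library.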

How the results depend on the processing

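Counts of members called stayed within 1.5 times their value under both pseudocounts, under the replicate block and, for the totals in either direction, under edgeR, DESeq2, another filter or no filter, and other scaling. The exception was non-additivity at day 4, with 5 members called when all 24 libraries were fitted together, against 10; the cause was not tested. No named member reversed. With the replicate block, the totals at day 0 were 33 in double-KO, 37 in Mll2-KO and 37 in Mll1-KO cells, and the calls of Eno2 in Mll2-KO cells at day 4 (adjusted p = 0.051), Pgam1 between double-KO and Mll2-KO cells at day 4 (adjusted p = 0.062) and Slc2a1 in double-KO cells between days (adjusted p = 0.26) were lost. Leaving day 0 WT out, an alternative chosen after seeing the data, moved no count between double-KO and single mutants by more than 1.5 times. Those comparisons hold no WT library, so only the filter and the shared estimate of spread could change.

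The difference between the median changes of enzymes and other HIF targets had no stable sign at day 4. Over fits without 1 library it ran from -0.14 to 0.01 in double-KO, -0.07 to 0.05 in Mll2-KO and -0.17 to 0.06 in Mll1-KO cells, and with transporters and control genes counted as enzymes it was -0.07 in Mll2-KO cells. At day 0 it ran from 1.62 to 1.69 in double-KO, 0.38 to 0.49 in Mll2-KO and was 0.98 or more in Mll1-KO cells. Over the members that reached the filter outside WT, an alternative chosen after seeing the data, it was 1.05 in double-KO and 0.08 in Mll2-KO cells, since Adm, Stc1 and Ppp1r3c were left out. A pseudocount of 5 gave log2 ratios of 5.44 for Pfkl to Pfkp in day 4 double-KO, -7.45 for Aldoc to Aldoa in day 4 WT and -7.23 for Eno2 to Eno1 in day 4 Mll2-KO cells, against 5.50, -7.54 and -7.27. Scaling to column totals moved the median of all genes by 0.12 in WT, 0.24 in Mll1-KO and 0.12 in double-KO cells between days, by -0.11 for double-KO against Mll1-KO cells at day 4 and by 0.11 for the Mll1-KO effect between days. Under it 5 members were higher in Mll1-KO cells at day 4, against 3. Depth limits Stc1, Ppp1r3c, Adm, Car9 and Ankrd37 most.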

Other observations

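Of 28 genes of pyruvate entry and the tricarboxylic acid cycle at day 0, 5 rose and 13 fell in double-KO (median -0.11), 5 rose and 8 fell in Mll2-KO (median -0.03), and 4 rose and 8 fell in Mll1-KO cells (median -0.05). Among all genes 53.7%, 47.2% and 40.0% were called in these comparisons in that order, and nothing particular to these genes is read from the counts. Pdk4, a pyruvate dehydrogenase kinase tied to fasting, averaged 95.5 ± 5.32 normalized counts in double-KO and 86.5 ± 10.8 in Mll1-KO cells, against 220 ± 9.22 in WT cells (SD, n = 3 each), with changes of -1.20 ± 0.13 (adjusted p = 1.6e-07) and -1.34 ± 0.13 (adjusted p = 6.2e-08) by limma. In Mll2-KO cells it changed by -0.18 ± 0.13 (adjusted p = 0.25). Over differentiation of WT cells 1 of these 28 genes rose and 23 fell, with a median of -0.55, against 43.0% of all genes higher and 39.9% lower.

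Of 7 genes of the pentose phosphate pathway at day 0, 3 rose and 1 fell in double-KO, 2 rose and 2 fell in Mll2-KO, and 3 rose and 3 fell in Mll1-KO cells. Over all genes 53.7%, 47.2% and 40.0% were called in that order, and nothing particular to these genes is read from the counts. Pgd, phosphogluconate dehydrogenase, rose at day 0 by 0.55 ± 0.04 (adjusted p = 1.8e-09) in double-KO and 0.47 ± 0.04 (adjusted p = 3.4e-08) in Mll1-KO cells, against a change of -0.15 ± 0.04 (adjusted p = 0.0077) in Mll2-KO cells. G6pdx, glucose-6-phosphate dehydrogenase, rose by 0.39 ± 0.06 (adjusted p = 2.2e-05) in double-KO and 0.31 ± 0.06 (adjusted p = 0.00034) in Mll1-KO cells. Txnip, an inhibitor of glucose uptake whose RNA follows glucose supply, averaged 1620 ± 313 in double-KO, 4360 ± 848 in Mll2-KO and 1870 ± 128 in Mll1-KO cells, against 4510 ± 407 in WT cells at day 0, with changes of -1.49 ± 0.11 (adjusted p = 1.2e-09), -0.06 ± 0.11 (adjusted p = 0.68) and -1.27 ± 0.11 (adjusted p = 2.7e-08) in that order. At day 4 Txnip was lower where Mll2 was lost, at -1.22 ± 0.08 (adjusted p = 2.4e-12) in double-KO and -1.15 ± 0.08 (adjusted p = 1.3e-11) in Mll2-KO cells, and changed by 0.03 ± 0.08 (adjusted p = 0.78) in Mll1-KO cells. Hkdc1, a hexokinase-like gene, averaged 4.58 ± 2.66 in double-KO and 4.24 ± 2.36 in Mll1-KO cells, against 65.4 ± 10.5 in WT cells at day 0. Its log2 fold changes were -3.70 and -3.76. The double-KO and Mll1-KO means lay below the filter of 10, so Hkdc1 could be tested only through groups where it was higher. Its values are therefore given as a description. The summed primitive endoderm markers were also low in double-KO and Mll1-KO cells, and their part was not tested.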
